A study of Mus musculus with 16 samples.

Results

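The genes described here are ribosome biogenesis genes, which encode the factors that transcribe ribosomal RNA and cut, modify and fold it into the 2 ribosomal subunits. The members were taken from a list of 37 gene symbols, which was chosen with earlier results of these data known. Each was matched to probe sets that carry that symbol alone, and the probe set with the highest mean over all arrays stood for the gene. Of the 37 listed genes 36 were found among the 19938 genes tested, and Noc2l was not analysed here. The samples were 16 plates of cultured mouse embryonic fibroblasts, 4 per group, whose total RNA was each hybridised to 1 Affymetrix microarray. The knockdown line stably expressed a hairpin (shRNA) directed at Atf5, which encodes a bZIP transcription factor, and the control line is labelled wild type and carried a scramble shRNA. Both lines were kept for 8 h with 1 µM MG132, a proteasome inhibitor, or with DMSO as vehicle. The 4 groups are therefore knockdown cells with MG132, control cells with MG132, knockdown cells with vehicle and control cells with vehicle. The labels name 1 line of each kind, so the knockdown and any other difference between the lines cannot be told apart. Nothing in them says that the plates were independent cultures, so every p-value here reflects plate-to-plate spread, which may be technical.

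Ribosomes are built mainly in the nucleolus. RNA polymerase I copies the ribosomal DNA into a long precursor RNA, small nucleolar ribonucleoproteins (snoRNPs) guide its methylation and pseudouridylation, and large assemblies of processing factors release the small and the large subunit. Fibroblasts that grow in culture invest heavily in this pathway, and it is commonly slowed when cells are stressed or stop dividing. The proteasome takes part in the turnover of surplus ribosomal proteins and of nucleolar factors.

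Values are log2 probe set intensities as deposited, and differences are log2 fold changes with the limma standard error. A gene is said to have risen, fallen or differed only where its limma adjusted p was under 0.05 over all 19938 genes. Array medians lay between 7.71 and 7.82, and the number of arrays limits the precision. Atf5 itself was lower in knockdown than in control cells, by -0.31 ± 0.05 with MG132 and by -0.22 ± 0.05 with vehicle (limma adjusted p = 0.000148 and 0.00321). The labelled cell type was checked with 10 fibroblast markers, whose mean was 10.21 to 10.28 in knockdown and 10.08 to 10.09 in control cells with MG132, and 10.35 to 10.40 in knockdown and 10.26 to 10.27 in control cells with vehicle. Vim, Fn1 and Col1a1 were bright, while Lum averaged 4.75 over all arrays. The mean of 5 epithelial markers was lower in knockdown cells, at 7.58 to 7.67 against 8.10 to 8.20 with MG132 and at 7.60 to 7.69 against 8.13 to 8.24 with vehicle. Krt19, a keratin, carried this at a log2 difference of -2.44 with vehicle, where the other 4 of 5 did not pass. Of the fibroblast markers 4 were higher and 3 lower in knockdown cells with vehicle. Over all arrays the means of macrophage markers were 6.36 to 6.57, of endothelial markers 6.75 to 7.19, of muscle markers 7.33 to 7.65 and of adipocyte markers 6.53 to 6.82. The part of these markers in the line differences below was not tested, and in bulk RNA fewer cells of a type and less RNA per cell cannot be told apart. Inside the groups 37.8% of the variance followed 1 gradient. Control vehicle plates 1 and 4, knockdown vehicle plate 1 and control MG132 plate 4 lay at or near the low end of their groups on it, and members' counts were repeated without these 4 arrays. Without them 20 members were lower and 1 higher in knockdown cells with vehicle, in place of 25 and 2. MG132 raised 21 and lowered 3 in knockdown cells, in place of 22 and 3, and raised 6 and lowered 5 in control cells, in place of 6 and 9. Knockdown MG132 plate 2, at -4.269 on the gradient, lay level with control vehicle plate 4, at -4.266, but was kept. With it left out in place of that control plate, 22 members were lower and 1 higher in knockdown cells with vehicle. MG132 then raised 21 and lowered 2 in knockdown cells and raised 6 and lowered 5 in control cells.

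The ribosome biogenesis genes were bright on every array. Their median level was 11.7 against 8.18 for all genes, from Rrs1 at 9.46 to Ncl, the nucleolar protein nucleolin, at 13.35, and 34 of 36 were among the brightest 4984 genes, those above the 75th percentile of mean level. Counts of genes that passed are therefore set beside these 4984 bright genes as well as beside all genes. Counts of members whose plates did not overlap are set beside all genes only. The mean over the 36 members was 11.767 to 11.809 in knockdown cells with MG132 and 11.799 to 11.847 in control cells with MG132. With vehicle it was 11.657 to 11.676 in knockdown cells and 11.831 to 11.844 in control cells. The 4 knockdown plates with vehicle were thus the lowest 4 of the 16, and the 2 groups with vehicle did not overlap. The members lie on 16 chromosomes, with at most 6 on any of them.

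**Figure D1:**
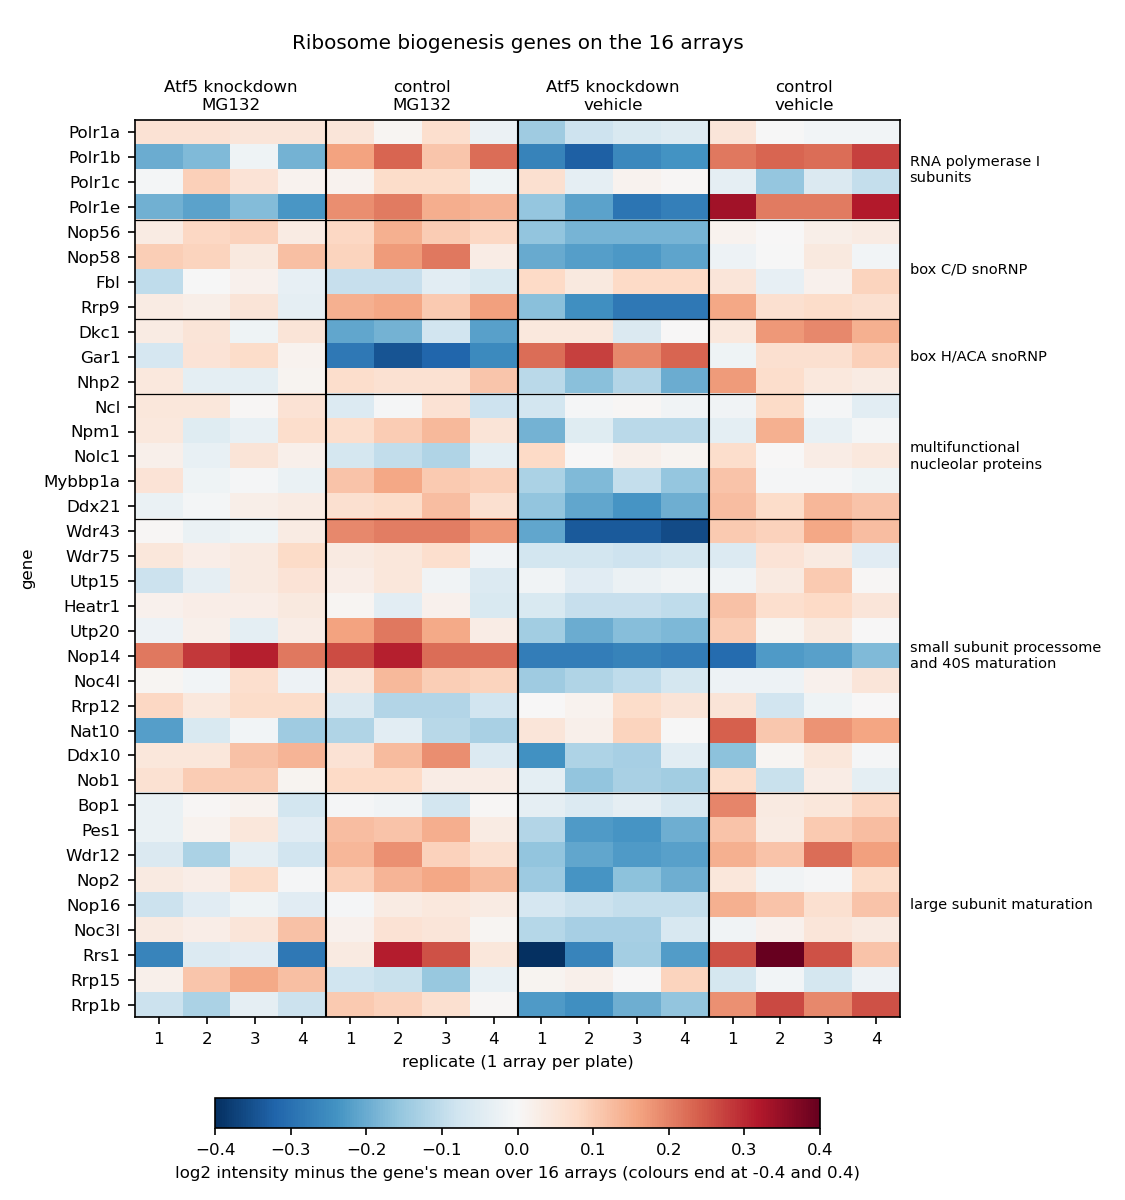
Each row is a ribosome biogenesis gene and each column an array, with colour giving the log2 intensity minus the gene's mean over 16 arrays. The columns of knockdown cells with vehicle are mostly blue, with Gar1 as the clearest exception, and Nop14 is red on all 8 MG132 arrays.

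The first comparison asks how the untreated Atf5-knockdown cells differed from control cells. Of 36 ribosome biogenesis genes 25 were lower in knockdown cells, 2 were higher and 9 did not pass. Over all genes tested 39.4% passed, 21.5% higher and 17.9% lower, and of the bright genes 64.3% passed, 32.6% higher and 31.6% lower. For the members the share lower was 69.4%. The plates of the 2 groups did not overlap in 26 of 36 members, against 38.7% of all genes, a share not computed for the bright genes. The median log2 difference was -0.135 for the members, -0.012 for all genes and 0.003 for the bright genes. All differences were under 2-fold, from -0.54 to 0.18.

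The RNA polymerase I subunits held some of the largest differences. Polr1b, which encodes the second largest subunit of the enzyme, read 11.83, 11.77, 11.84 and 11.86 on the 4 knockdown plates with vehicle, against 12.31, 12.33, 12.32 and 12.37 in control cells. It was lower by -0.51 ± 0.04 (-29.7%, limma adjusted p = 2.73e-08). Polr1e, a smaller subunit, read 10.75, 10.69, 10.61 and 10.63 against 11.24, 11.11, 11.11 and 11.22. It was lower by -0.50 ± 0.04 (-29.3%, limma adjusted p = 1.65e-08). For both genes every knockdown plate lay below every control plate (two-sided exact permutation p = 0.0286, which is the lowest possible with 4 plates a group). Polr1a, the largest subunit, was lower by -0.09 ± 0.03. Polr1c, a subunit shared with RNA polymerase III, went the other way: it read 12.19, 12.09, 12.14 and 12.13 in knockdown cells against 12.09, 11.97, 12.07 and 12.03, a difference of 0.10 ± 0.04 (limma adjusted p = 0.0481), with the groups sharing a value (exact permutation p = 0.0571).

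Among the large subunit factors 8 of 9 were lower in knockdown cells. Rrs1, which in yeast helps to bring the 5S ribonucleoprotein into the large subunit, read 9.01, 9.20, 9.33 and 9.24 in knockdown cells with vehicle against 9.72, 9.91, 9.72 and 9.58 in control cells. Its difference of -0.54 ± 0.09 (-31.1%, limma adjusted p = 6.5e-05) was the largest in size among the members, and it was the dimmest member with the widest standard error. Rrp1b, a nucleolar protein related to the yeast factor Rrp1, was lower by -0.43 ± 0.035. Of the PeBoW complex, which is needed to process the precursor of the large subunit RNA, Wdr12 was lower by -0.36 ± 0.04, Pes1 by -0.29 ± 0.04 and Bop1 by -0.14 ± 0.04. A second probe set that carries the symbol Wdr12 gave -0.457 here, but it departed from the first in the MG132 responses below. Nop2, a methyltransferase of the large subunit RNA, was lower by -0.21 ± 0.03, Nop16 by -0.195 ± 0.03 and Noc3l by -0.13 ± 0.03. Rrp15 did not pass in this comparison, at 0.07 ± 0.04.

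In the small subunit processome, the assembly that forms on the nascent precursor, 6 of 11 genes were lower, with none higher. Wdr43 differed most, by -0.43 ± 0.035 (limma adjusted p = 1.96e-08), followed by Utp20 at -0.21 ± 0.04 and Heatr1 at -0.165 ± 0.03. Nat10, the RNA cytidine acetyltransferase, was lower by -0.13 ± 0.04, Noc4l by -0.115 ± 0.03 and Nob1, the endonuclease that makes the 3′ end of the small subunit RNA, by -0.11 ± 0.04. Wdr75, Utp15, Nop14, Rrp12 and Ddx10 did not pass, at -0.11 to 0.045. Among the box C/D snoRNP genes, whose complexes methylate ribosomal RNA, the paralogous core proteins Nop58 and Nop56 were lower by -0.22 ± 0.04 and -0.20 ± 0.03, and Rrp9, a protein specific to the U3 snoRNP, by -0.335 ± 0.04. Fbl, the methyltransferase of the same particles, did not pass at 0.04 ± 0.035. Its second probe set gave -0.07 and did not pass either (limma adjusted p = 0.0808).

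The box H/ACA genes, whose complexes make pseudouridine, did not move as 1 block. Gar1 was higher in knockdown cells, at 12.38, 12.43, 12.35 and 12.39 against 12.14, 12.22, 12.22 and 12.25, with no overlap (0.18 ± 0.04, limma adjusted p = 0.000788). Its partner Nhp2 was lower by -0.23 ± 0.04. Dkc1, the pseudouridine synthase, was lower by -0.13 ± 0.04 (limma adjusted p = 0.0181), although 1 control plate lay level with 2 knockdown plates at 12.10 (exact permutation p = 0.0857). Of the multifunctional nucleolar proteins Ddx21, an RNA helicase, was lower by -0.31 ± 0.03, Mybbp1a by -0.16 ± 0.035 and Npm1, the histone chaperone nucleophosmin, by -0.13 ± 0.04, while Ncl and Nolc1 did not pass, at -0.025 and -0.01.

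**Figure D2:**
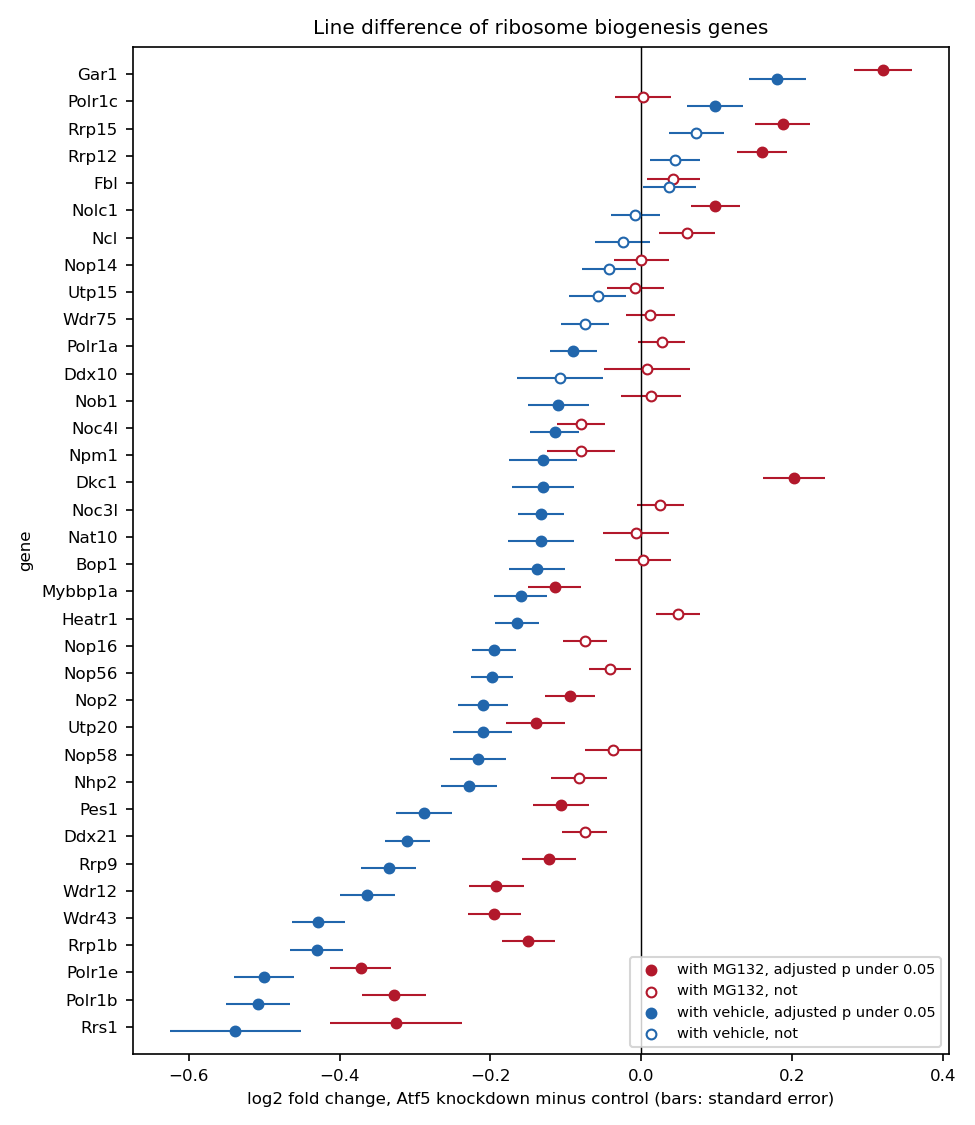
Points are log2 differences between Atf5-knockdown and control cells for each of 36 genes, with MG132 in red and with vehicle in blue, filled where the limma adjusted p was under 0.05; bars are standard errors. With vehicle 25 genes lie left of 0 as filled points, from Rrs1 at -0.54, and with MG132 11 do.

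The second comparison gives the response of the Atf5-knockdown cells to proteasome inhibition. MG132 raised 22 of the 36 genes, lowered 3 and left 11 that did not pass. Of all genes 40.7% passed, 16.4% higher and 24.3% lower, and of the bright genes 66.2% passed, 29.7% higher and 36.5% lower, whereas 61.1% of the members rose. The plates did not overlap in 24 of 36 members, against 38.5% of all genes, a share not computed for the bright genes. The median change was 0.123 for the members, 0.033 for all genes and -0.02 for the bright genes. When the arrays were instead centred on their medians, a shift of -0.06 for all genes, 11 members rose and 3 fell, so the number that rose depends on the scaling between arrays. The share of the bright genes that rose under median centring was not computed. With quantile normalization repeated the number of members that rose was 23.

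Nop14, a small subunit processome protein, had the largest rise. In knockdown cells it read 11.78, 11.85, 11.88 and 11.78 with MG132 against 11.29, 11.29, 11.30 and 11.29 with vehicle. It rose by 0.53 ± 0.04 (44.4%, limma adjusted p = 3.78e-09) with wide separation of the plates. Wdr43 read 12.61, 12.58, 12.59 and 12.64 with MG132 against 12.40, 12.27, 12.27 and 12.25, a rise of 0.31 ± 0.035 (limma adjusted p = 1.4e-06). Nop58 read 12.14, 12.13, 12.08 and 12.16 against 11.84, 11.82, 11.81 and 11.83 and rose by 0.30 ± 0.04 (limma adjusted p = 4.04e-06). In all 3 genes every MG132 plate lay above every vehicle plate. By role, 8 of 11 small subunit genes rose in knockdown cells, 3 of 4 box C/D genes, 5 of 9 large subunit genes, 3 of 5 multifunctional nucleolar genes, 2 of 4 polymerase subunits and 1 of 3 box H/ACA genes. Rrp9 (0.265 ± 0.04), Nop56 (0.24 ± 0.03), Ddx10 (0.22 ± 0.06), Nop2 (0.22 ± 0.03) and Ddx21 (0.205 ± 0.03) were next in size. Wdr12, counted among the large subunit rises, rose by 0.13 ± 0.04, but its second probe set gave -0.013 (limma adjusted p = 0.873). The rise of Wdr12 thus rests on 1 of its 2 probe sets.

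The 3 genes that fell in knockdown cells came from different complexes. Gar1 read 12.09, 12.21, 12.23 and 12.17 with MG132 against 12.38, 12.43, 12.35 and 12.39 with vehicle and fell by 0.21 ± 0.04 on the log2 scale (limma adjusted p = 0.000175). Nat10 read 11.02, 11.18, 11.23 and 11.10 against 11.29, 11.26, 11.33 and 11.24, a fall of 0.15 ± 0.04 (limma adjusted p = 0.0129). Fbl read 12.12, 12.22, 12.24 and 12.19 against 12.30, 12.26, 12.30 and 12.30 and fell by 0.10 ± 0.035 (limma adjusted p = 0.0323). None of these 3 overlapped between MG132 and vehicle. On a second probe set with the symbol Fbl the change was -0.002, so the fall of Fbl rests on 1 of its 2 probe sets. Without knockdown MG132 plate 1 only Gar1 of the 3 passed, with limma adjusted p = 0.0534 for Nat10 and 0.116 for Fbl.

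In control cells MG132 moved these genes in both directions. Of 36 members 6 rose, 9 fell and 21 did not pass, with a median of -0.014. Over all genes 35.8% passed, 16.8% higher and 19.0% lower, and of the bright genes 63.8% passed, 30.3% higher and 33.5% lower, against 41.7% of the members, 16.7% higher and 25% lower. The share of members that rose was thus near that of all genes, and the share that passed lay below that of the bright genes. The plates did not overlap in 14 of 36 members, against 32.9% of all genes, a share not computed for the bright genes. With arrays centred on their medians, a shift of -0.05 for all genes, 1 member rose and 11 fell, so the balance of rises and falls in control cells depends on the scaling. In a fit of the 2 control groups alone 2 rose and 5 fell. Leaving out control vehicle plate 2 or plate 3, or control MG132 plate 3, left 3 rises each.

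Nop14 was again the member that rose most, at 11.83, 11.88, 11.79 and 11.79 with MG132 against 11.26, 11.34, 11.35 and 11.39 with vehicle (0.49 ± 0.04, 40.2%, limma adjusted p = 1.07e-08). Nop58 read 12.13, 12.21, 12.25 and 12.07 against 12.02, 12.04, 12.08 and 12.03, with an overlap (0.12 ± 0.04, limma adjusted p = 0.0159). Polr1c read 12.14, 12.20, 12.20 and 12.11 against 12.09, 11.97, 12.07 and 12.03 without overlap (0.12 ± 0.04, limma adjusted p = 0.0158). The other rises, in Nop2, Mybbp1a and Nop56, were 0.085 to 0.10. Of the 6 only Nop14 still passed after median centring.

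The largest falls in control cells were those of Gar1 and Dkc1, both box H/ACA genes. Nhp2, of the same role, did not pass, at -0.003 ± 0.04. Gar1 read 11.87, 11.81, 11.84 and 11.90 with MG132 against 12.14, 12.22, 12.22 and 12.25 with vehicle and fell by 0.35 ± 0.04 (-21.7%, limma adjusted p = 8.33e-07). Dkc1 read 11.85, 11.87, 11.98 and 11.84 against 12.10, 12.23, 12.25 and 12.20 and fell by 0.31 ± 0.04 (-19.3%, limma adjusted p = 1.1e-05). Nat10 read 11.12, 11.20, 11.13 and 11.11 against 11.48, 11.35, 11.42 and 11.40 and fell by 0.27 ± 0.04 (-17.2%, limma adjusted p = 8.73e-05). In each of these genes the 4 MG132 plates lay below the 4 vehicle plates. Rrp1b fell by 0.16 ± 0.035, Nolc1, a chaperone of snoRNPs, by 0.12 ± 0.03, Bop1 by 0.11 ± 0.04, Fbl by 0.10 ± 0.035, Heatr1 by 0.10 ± 0.03 and Nop16 by 0.08 ± 0.03. The second probe set of Fbl gave -0.017 in control cells and did not pass (limma adjusted p = 0.707). The second probe set of Wdr12 changed by -0.232 in control cells (limma adjusted p = 0.00149), where the chosen one, at -0.043, did not pass.

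**Figure D3:**
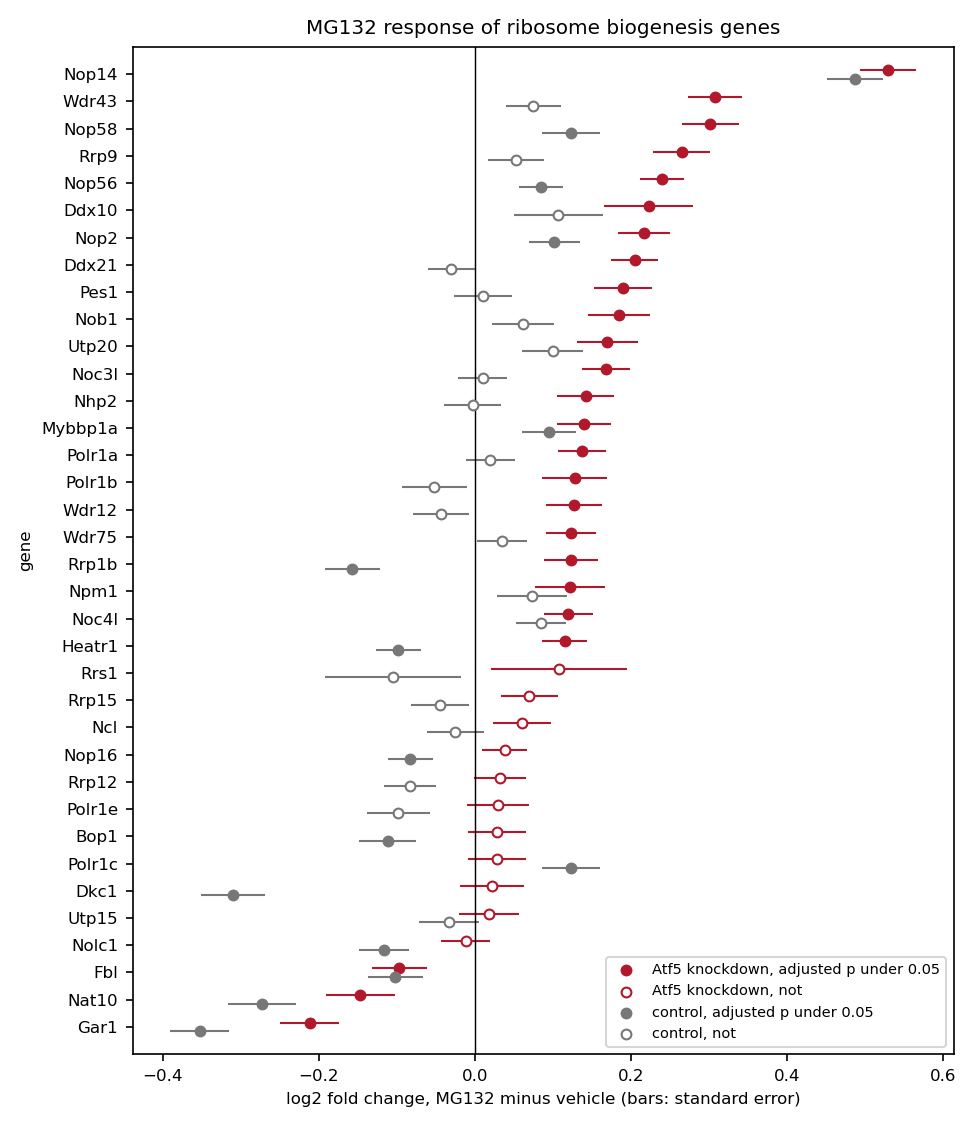
Points are log2 fold changes of MG132 over vehicle for each of 36 genes, in Atf5-knockdown cells in red and in control cells in grey, filled where the limma adjusted p was under 0.05; bars are standard errors. In 35 of 36 genes the red point lies right of the grey one, Polr1c being the exception, and Nop14 lies farthest right in both lines.

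Promoter sequences were read for the members that moved most with MG132 averaged over the lines, Gar1 (-0.28) and Nat10 (-0.21) at the low end and Nop14 (0.51) and Nop58 (0.21) at the high end. Sequences run 5′ to 3′ on the gene's strand, from 250 bases before to 50 after the RefSeq start in GRCm38.p6. Capitals mark matches to the ETS motif CGGAAG on either strand. They lie at chr3:129831347-129831646 (Gar1, minus strand), chr2:103761221-103761520 (Nat10, minus strand), chr5:34660099-34660398 (Nop14, minus strand) and chr1:59684756-59685055 (Nop58, plus strand).
Gar1: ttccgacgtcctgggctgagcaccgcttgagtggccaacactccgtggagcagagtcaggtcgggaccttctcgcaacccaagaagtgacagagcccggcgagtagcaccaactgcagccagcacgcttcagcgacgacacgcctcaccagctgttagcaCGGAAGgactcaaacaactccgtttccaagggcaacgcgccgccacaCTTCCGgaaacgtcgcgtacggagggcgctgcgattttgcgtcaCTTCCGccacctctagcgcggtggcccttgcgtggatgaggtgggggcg
Nat10: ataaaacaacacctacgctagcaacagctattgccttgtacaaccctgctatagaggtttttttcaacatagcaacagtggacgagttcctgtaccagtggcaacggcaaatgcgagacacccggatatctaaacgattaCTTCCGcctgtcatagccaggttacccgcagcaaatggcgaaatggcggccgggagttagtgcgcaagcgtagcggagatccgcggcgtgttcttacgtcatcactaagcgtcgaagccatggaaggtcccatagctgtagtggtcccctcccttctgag
Nop14: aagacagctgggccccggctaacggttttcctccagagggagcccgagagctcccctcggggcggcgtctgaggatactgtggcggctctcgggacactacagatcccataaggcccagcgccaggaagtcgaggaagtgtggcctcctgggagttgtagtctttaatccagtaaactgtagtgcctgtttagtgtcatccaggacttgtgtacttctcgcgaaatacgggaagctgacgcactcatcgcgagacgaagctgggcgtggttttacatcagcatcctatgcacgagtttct
Nop58: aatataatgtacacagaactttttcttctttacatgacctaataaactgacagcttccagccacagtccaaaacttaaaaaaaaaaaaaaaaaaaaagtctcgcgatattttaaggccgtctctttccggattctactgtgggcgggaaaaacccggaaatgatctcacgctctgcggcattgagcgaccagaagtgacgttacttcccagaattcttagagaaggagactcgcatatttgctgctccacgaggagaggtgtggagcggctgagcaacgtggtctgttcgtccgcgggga

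The Gar1 promoter held 3 matches to CGGAAG and the Nat10 promoter 1, while the windows of Nop14 and Nop58 held none. The shorter run GGAA within this motif does occur in the windows of Nop14 and Nop58. Promoters were found for 31 of the 36 members, 34 sequences in all, since Wdr12 and Rrp1b have several starts. At least 1 match to CGGAAG stood in 17 of the 34, or 50%, against 16.9% of the 32851 promoters of all genes. The E-box CACGTG, to which MYC and related factors bind, stood in 5 of the 34, or 14.7%, against 7.15% of all promoters, and in none of the 4 printed. Both motifs were searched on both strands and cannot overlap each other. Member promoters were also richer in CpG, with a median of 20.5 CpG per 300 bases against 7 for all promoters, and these shares were not matched for base composition. A match is only a run of letters, and its absence says only that these letters are not in the window.

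The 2 lines were then compared in their response, by the difference of the MG132 changes in 1 fit. For 11 of 36 members the change was higher in knockdown cells, and for 0 it was lower (limma; at an unadjusted p under 0.05 the counts were 23 and 0). Of all genes 14.6% passed, 4.45% higher and 10.1% lower, and of the bright genes 19.8% passed, 8.81% higher and 11.0% lower, against 30.6% of the members. The median difference was 0.124, against -0.01 for all genes. With median centring 6 passed, without the 4 arrays of the gradient 6, without knockdown vehicle plate 2 or plate 3 7 each, and with a trended robust prior 18, all of them higher. With the second choice of 4 gradient arrays left out, which holds knockdown MG132 plate 2 in place of control vehicle plate 4, 8 passed, all higher. These comparisons share arrays: the knockdown plates with vehicle, which were the lowest, enter both the line difference with vehicle and the knockdown response. All 11 members with a higher response in knockdown cells were also lower in untreated knockdown cells, a count that the shared plates bear on.

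Dkc1 had the largest difference of responses, 0.33 ± 0.06 (limma adjusted p = 0.0011). In knockdown cells it read 12.09, 12.11, 12.04 and 12.11 with MG132 against 12.10, 12.10, 12 and 12.06 with vehicle, with overlap, while in control cells it fell as given above. Rrp1b moved in opposite directions: 10.93, 10.89, 10.98 and 10.93 with MG132 against 10.79, 10.77, 10.82 and 10.86 with vehicle in knockdown cells, and 11.12, 11.11, 11.08 and 11.02 against 11.20, 11.28, 11.21 and 11.27 in control cells. Neither pair of groups overlapped, and the difference was 0.28 ± 0.05 (limma adjusted p = 0.0011). Heatr1, a processome protein also needed for transcription of ribosomal DNA, did the same. It read 11.52, 11.53, 11.53 and 11.54 against 11.44, 11.41, 11.41 and 11.40 in knockdown cells, and 11.51, 11.46, 11.52 and 11.44 against 11.62, 11.57, 11.58 and 11.55 in control cells (difference 0.21 ± 0.04, limma adjusted p = 0.00228). Rrp1b and Heatr1 were the 2 members that passed with opposite signs in the 2 lines. With median centring their rises in knockdown cells no longer passed, at 0.062 for Rrp1b and 0.055 for Heatr1 (limma adjusted p = 0.315 and 0.266). The fall of Heatr1 in control cells did not pass in the fit of the 2 control groups alone (limma adjusted p = 0.0744) or without the 4 arrays of the gradient (0.119).

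Ddx21, Wdr43 and Rrp9 shared another pattern, a rise in knockdown cells and no change past the threshold in control cells. Ddx21 read 12.67, 12.69, 12.72 and 12.73 with MG132 against 12.54, 12.49, 12.46 and 12.50 in knockdown cells, and 12.76, 12.77, 12.82 and 12.76 against 12.82, 12.77, 12.83 and 12.81 in control cells (difference 0.235 ± 0.04, limma adjusted p = 0.00141). Wdr43, given above for knockdown cells, read 12.80, 12.81, 12.81 and 12.78 against 12.71, 12.70, 12.76 and 12.73 in control cells, where the plates did not overlap but the gene did not pass (difference 0.23 ± 0.05, limma adjusted p = 0.00396). Rrp9 read 11.60, 11.59, 11.62 and 11.53 against 11.40, 11.32, 11.28 and 11.28 in knockdown cells, and 11.71, 11.72, 11.67 and 11.73 against 11.72, 11.63, 11.64 and 11.63 in control cells (difference 0.21 ± 0.05, limma adjusted p = 0.00924). In all 3 genes the highest knockdown plate with vehicle lay below the lowest plate of each other group. The other 5 were Nop58, Pes1, Wdr12, Noc3l and Nop56, with differences of 0.155 to 0.18 (limma adjusted p 0.0154 to 0.0325). For Wdr12 the second probe set gave a difference of 0.22 that did not pass (limma adjusted p = 0.0595).

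**Figure D4:**
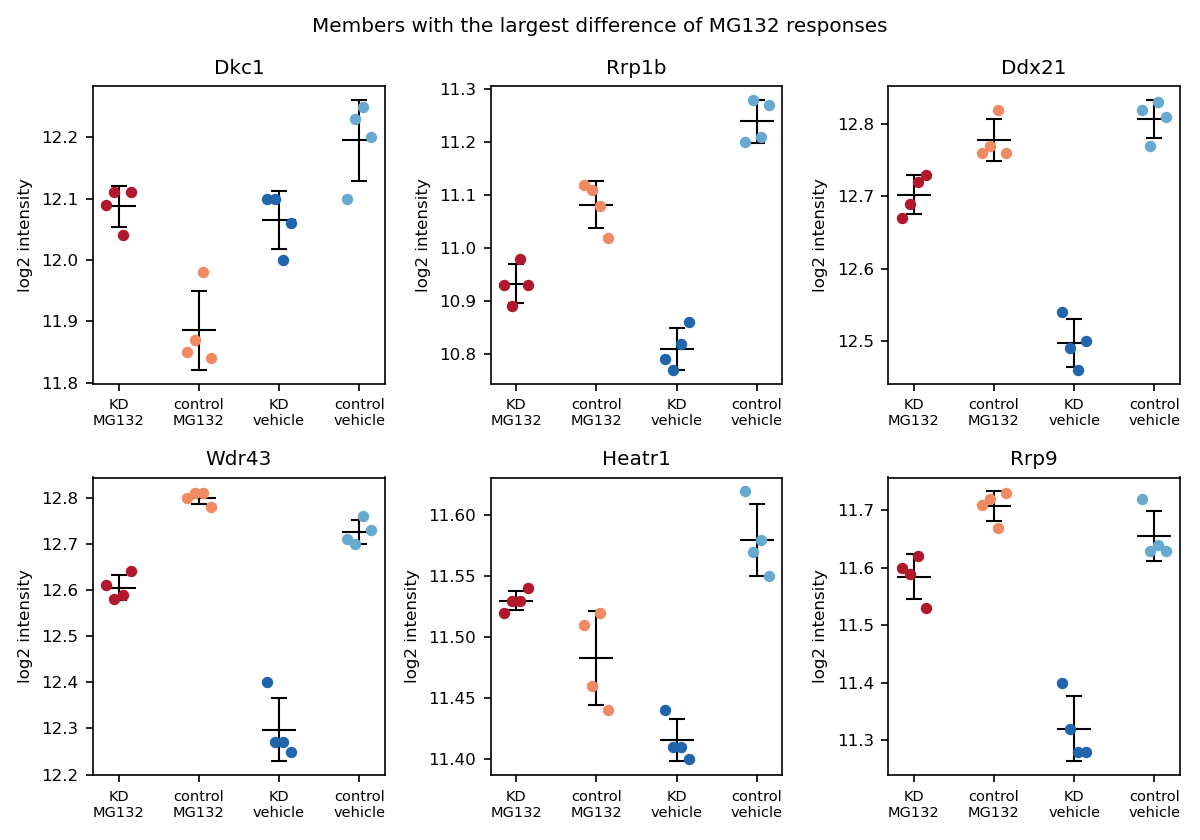
Log2 intensity on each array for the 6 ribosome biogenesis genes with the largest difference of MG132 responses between the lines; points are arrays, and the bar and whiskers are the mean and SD of 4 (KD, Atf5 knockdown). Each axis has its own range and does not start at 0. By their means, knockdown cells with vehicle are lowest in Rrp1b, Ddx21, Wdr43, Heatr1 and Rrp9, and in Dkc1 control cells with MG132 are lowest.

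With MG132 present, fewer members separated the lines. Of 36 genes 11 were lower in knockdown than in control cells, 5 were higher and 20 did not pass, with a median of -0.02. Over all genes 38.1% passed, 17.7% higher and 20.3% lower, and of the bright genes 62.0% passed, 30.6% higher and 31.5% lower. Of the members 44.4% passed, 13.9% higher and 30.6% lower, so the share lower lay near that of the bright genes. The plates did not overlap in 17 of 36 members, against 34.7% of all genes, a share not computed for the bright genes. The 11 were all among the 25 that were lower with vehicle. Polr1e read 10.71, 10.69, 10.73 and 10.67 in knockdown cells against 11.09, 11.11, 11.05 and 11.04 in control cells, both with MG132 (-0.37 ± 0.04, limma adjusted p = 7.26e-07). Polr1b read 11.90, 11.92, 12.08 and 11.91 against 12.26, 12.33, 12.21 and 12.32 (-0.33 ± 0.04, limma adjusted p = 6.24e-06). Rrs1 read 9.20, 9.41, 9.42 and 9.18 against 9.5, 9.78, 9.72 and 9.51 (-0.325 ± 0.09, limma adjusted p = 0.00592). None of these overlapped, and the differences of their MG132 responses between the lines did not pass (limma adjusted p 0.0539 to 0.3).

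The genes higher in knockdown cells under MG132 included both box H/ACA members that fell in control cells. Gar1 read 12.09, 12.21, 12.23 and 12.17 in knockdown cells against 11.87, 11.81, 11.84 and 11.90 in control cells (0.32 ± 0.04, limma adjusted p = 2.14e-06). Dkc1 read 12.09, 12.11, 12.04 and 12.11 against 11.85, 11.87, 11.98 and 11.84 (0.20 ± 0.04, limma adjusted p = 0.000706). Rrp15, a large subunit factor, read 11.00, 11.09, 11.13 and 11.10 against 10.90, 10.89, 10.83 and 10.95 (0.19 ± 0.04, limma adjusted p = 0.000518). All 3 were without overlap. Rrp12, a factor of subunit export and maturation, was higher by 0.16 ± 0.03 and Nolc1 by 0.10 ± 0.03.

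Other genes of the pathway, from lists of which 183 genes were measured, are given by counts. In untreated knockdown cells 26 of 41 further small subunit genes were lower and 3 higher, and 28 of 47 further large subunit genes were lower and 1 higher. The shares lower were 63.4% and 59.6%, against 31.6% of the bright genes. Ftsj3, a methyltransferase of the large subunit path (-0.48 ± 0.04), Riok2, a kinase of late small subunit maturation (-0.46 ± 0.04), and Nol10 (-0.335 ± 0.06) were examples. Further polymerase I genes were lower in 5 and higher in 2 of 16, and their share lower, 31.2%, was near the 31.6% of the bright genes. Twistnb differed by -0.35 ± 0.055 and Polr1d by -0.32 ± 0.04, the latter on the brighter of its 2 probe sets. This list includes Polr2e, Polr2f, Polr2h, Polr2k and Polr2l, subunits shared with other RNA polymerases. Of these Polr2l was lower and Polr2f higher, and the others did not pass. Further snoRNP factors were lower in 4 and higher in 3 of 11, with Tcof1, the treacle protein, at -0.25 ± 0.03. Exosome genes, which trim precursor RNAs, were lower in 5 and higher in 1 of 13, with the nuclease Dis3 at -0.40 ± 0.03. The shares lower were 36.4% for snoRNP factors and 38.5% for exosome genes, beside the 31.6% of the bright genes. Cytosolic ribosomal protein genes were lower in 17 and higher in 3 of 55, so 30.9% were lower, near the 31.6% of the bright genes, and 5.45% were higher, below their 32.6%. Rpl34 differed most, at -1.01 ± 0.05, but genes of this family have many near-identical copies and their probe sets are uncertain.

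With MG132 the same lists gave these counts. In knockdown cells 29.7% of the bright genes rose and 36.5% fell, and of all genes 16.4% and 24.3%. In control cells these shares were 30.3% and 33.5% of the bright genes, and 16.8% and 19% of all genes. In knockdown cells 19 small subunit genes rose and 6 fell, and 26 large subunit genes rose and 5 fell, with Ddx31, a helicase (0.61 ± 0.05), Zfp622 (0.56 ± 0.04) and Riok2 (0.51 ± 0.04) among the rises. In control cells these counts were 12 up and 13 down, and 16 up and 15 down. Those control shares, 29.3% and 31.7%, and 34% and 31.9%, were near those of the bright genes. In knockdown cells the shares that rose were 46.3% and 55.3%, and those that fell 14.6% and 10.6%. Polymerase I genes fell in 7 and rose in 2 of 16 in knockdown cells and fell in 8 and rose in 4 in control cells. Taf1a, a subunit of the promoter selectivity factor, rose most in both (0.82 ± 0.04 and 0.68 ± 0.04). Of the subunits shared with other polymerases, Polr2l, Polr2f and Polr2e fell in both lines, Polr2h fell in control cells only, and Polr2k passed in neither. The shares of polymerase I genes that fell were 43.8% and 50%, and those that rose 12.5% and 25%. Exosome genes fell in 6 and rose in 2 of 13 in knockdown cells and fell in 7 and rose in 2 in control cells, with Exosc3 at -0.425 ± 0.06 and -0.31 ± 0.06. The shares of exosome genes that fell were 46.2% and 53.8%, and 15.4% rose in each line. For snoRNP factors the counts were 4 up and 2 down of 11 in both lines, or 36.4% up and 18.2% down. Nop10, the remaining core protein of the box H/ACA particles, fell by 0.295 ± 0.03 in knockdown cells and by 0.41 ± 0.03 in control cells. Of 55 ribosomal protein genes 2 rose (3.64%) and 1 fell (1.82%) in knockdown cells, and 7 rose (12.7%) in control cells.

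Under MG132, knockdown cells were lower than control cells in 13 and higher in 9 of the 41 small subunit genes, and lower in 15 and higher in 9 of the 47 large subunit genes. The shares lower in these lists, 31.7% and 31.9%, and in the polymerase I list, 31.2%, were near the 31.5% of the bright genes. Polymerase I genes were lower in 5 and higher in 2 of 16, snoRNP factors lower in 1 and higher in 4 of 11, exosome genes lower in 7 and higher in 3 of 13, and ribosomal protein genes lower in 23 and higher in 4 of 55. The shares lower were 9.09% for snoRNP factors, 53.8% for exosome genes and 41.8% for ribosomal protein genes. The response itself was higher in knockdown cells for 9 of the 47 large subunit genes (19.1%) and 4 of the 41 small subunit genes (9.76%). Of the bright genes 8.81% were higher and 11% lower, and of all genes 4.45% and 10.1%. The small subunit share was thus near that of the bright genes. Genes with a higher response included Nol10 (0.34 ± 0.08), Sdad1 (0.34 ± 0.07) and Mdn1, a giant ATPase that remodels the large subunit precursor (0.31 ± 0.07). The response was lower for 1 small subunit gene, Ngdn (-0.24 ± 0.06). For the polymerase I genes it was higher in 1 (6.25%) and lower in 2 (12.5%). For snoRNP factors it was higher in 1 (9.09%), and for exosome genes lower in 1 (7.69%). These shares, too, were not far from those of the bright genes. For ribosomal protein genes it passed in 0 of 55 (limma; 2 higher and 7 lower at an unadjusted p under 0.05).

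**Figure D5:**
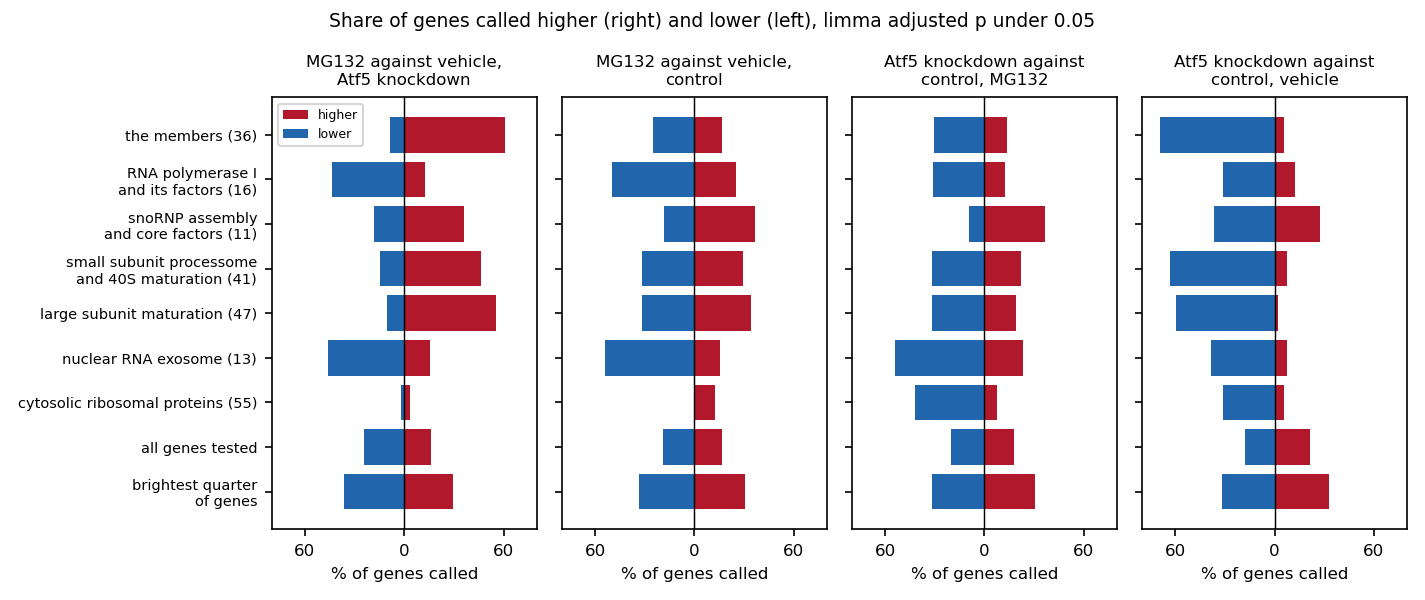
Bars give the percentage of genes with a limma adjusted p under 0.05, higher to the right and lower to the left, for the 36 ribosome biogenesis genes (the members), 6 lists of further pathway genes (number measured in brackets), all genes tested and the brightest 4984 genes. In untreated knockdown cells 69.4% of the ribosome biogenesis genes were lower, and MG132 raised 61.1% of them in knockdown cells against 16.7% in control cells. With arrays centred on their medians, 11 of the 36 rose in knockdown cells and 1 in control cells.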

How the data were processed

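The authors deposited log2 intensities per probe set for 16 arrays. The submitters' processing notes list the tools Partek and RMA without version or settings. RMA scales arrays to each other, so a shift shared by most genes would be hidden, and bright probe sets can be compressed. Of 35556 probe sets 21789 carried 1 gene symbol in the platform annotation, and 19938 genes were tested. Group means were fitted over the 16 arrays by limma 3.58.1 (R 4.3.3; 12 residual and 4.12 prior degrees of freedom, no block, no filter), with Benjamini-Hochberg adjustment over all genes. The fit was tested on simulated data with independent noise for each gene and array. The simulation held no gradient, so it does not cover spread that genes share. Single members were also compared by an exact permutation test. The members, the lists and the background of the brightest 4984 genes were chosen with earlier results of these data known. Members given array by array are the 3 highest and 3 lowest past the threshold in each comparison and the 6 largest differences of the responses. Same-numbered plates did not deviate together in every pair of groups (r from -0.501 to 0.396), so the numbers were not used as pairs. Between MG132 and vehicle within a line, r was 0.032 to 0.335 in control cells and -0.04 to 0.182 in knockdown cells. A fit with pairs within each line was not run. Names and promoters are from RefSeq GRCm38.p6. Alternatives were 2 scalings, 2 filters, another rule for probe sets, another prior, array weights, the 2 groups alone, a block for the replicate number, and leaving out arrays. Figures were drawn with matplotlib 3.10.9 in Python 3.11.15.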

Additional observations from a re-analysis of the deposited data

Results flagged for a closer look

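The MG132 responses of the 2 lines differed by the test of the difference itself in 11 members: Dkc1 (0.332), Rrp1b (0.28), Ddx21 (0.235), Wdr43 (0.232), Rrp9 (0.213), Heatr1 (0.213), Nop58 (0.18), Pes1 (0.18), Wdr12 (0.17), Noc3l (0.158) and Nop56 (0.155). Of the other pathway genes named above, the same held for Nol10 (0.34), Sdad1 (0.338), Mdn1 (0.313), Riok2 (0.28), Ddx31 (0.277) and Ftsj3 (0.208), and in the opposite direction for Ngdn (-0.24). These are log2 differences, knockdown response minus control response.

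A plate stood far from the other 3 of its group in 11 of 148 sets of 4 plates, where chance gives about 1 in 20. With MG132 these were Polr1b on knockdown plate 3 (12.08, the others 11.90 to 11.92) and Ddx21 on control plate 3 (12.82, the others 12.76 to 12.77). With vehicle they were, in knockdown cells, Wdr43 (12.40) and Nop56 (13.06) on plate 1, Fbl (12.26) on plate 2, and Wdr75 (11.95) and Nop14 (11.30) on plate 3. In control cells with vehicle they were Polr1a (11.86), Rrp9 (11.72) and Mybbp1a (12.82) on plate 1 and Npm1 (13.06) on plate 2. For Nop56, Fbl, Wdr75 and Nop14 the other 3 plates read the same to 2 decimals, so rounding sets these.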

How the results depend on the processing

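Across 27 alternative settings (26 for the difference of the responses), calls and directions held in all of them for 19 of 27 members in the line comparison with vehicle, 12 of 16 with MG132, 12 of 25 in the knockdown response, 6 of 15 in the control response and 6 of 11 in the difference of the responses; no call changed direction. Median centring gave 14 members in place of 25 in the knockdown response and 6 in place of 11 in the difference of the responses, where a trended robust prior gave 18 and the fit without 4 gradient arrays, chosen after seeing the data, gave 6. Leaving out 1 array gave 7 to 12 members in the difference of the responses, 11 to 16 in the control response, 22 to 25 in the knockdown response, 23 to 27 in the line comparison with vehicle and 13 to 17 with MG132. The control response fitted on its 2 groups alone gave 7 in place of 15. The replicate block gave 14 members for control cells with MG132, 25 for knockdown cells with MG132, 25 in the line comparison with vehicle, 16 in that with MG132 and 9 in the difference of the responses. The cause of these changes was not tested. The number of arrays limits how small a change can pass; compression of bright signals was not measured.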
